A study of Homo sapiens with 12 samples.

Results

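The 10 genes described here encode mRNA-binding proteins of families with members known to bind or travel with SMN in RNA granules of axons. SMN is the survival motor neuron protein, and an association with it was not examined for each of the 10. The genes are *ELAVL2*, *ELAVL3* and *ELAVL4*, *IGF2BP1*, *IGF2BP2* and *IGF2BP3*, *FMR1*, *FXR1* and *FXR2*, and *KHSRP*. They were chosen by name, and each matched 1 gene in both deposited tables, so that 10 of 16406 genes measured in motor neurons and 10 of 19016 measured in NGN2-induced neurons were examined. RNA of whole cells was measured, so the values describe the mRNAs of these proteins and not the granules or SMN binding.

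The study compared neurons with lentiviral, doxycycline-induced shRNA against *SMN1* and *SMN2* (*SMN*-KD) with neurons that received a scrambled shRNA in the same vector system (SCR). Motor neurons (iMNs) were differentiated from an induced pluripotent stem cell line in which the HB9 promoter drives Td-Tomato, and were sorted for that reporter. The other neurons (i3Ns), labelled as cortical, were made from H1 embryonic stem cells by induced expression of the proneural factor NGN2. Each of the 4 groups had 3 libraries of rRNA-depleted total RNA, 12 libraries in all. With 1 stem cell line behind each cell type, the cell type, its line and its differentiation protocol cannot be told apart. The labels number the replicates but do not say whether they came from separate cultures, and the p-values then measure only the spread between these libraries, which may be technical.

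Neuronal ELAVL proteins (HuB, HuC and HuD, from *ELAVL2*, *ELAVL3* and *ELAVL4*) bind U-rich and AU-rich elements in 3′ UTRs and stabilize the mRNAs that carry them. KHSRP binds AU-rich elements too and promotes decay of the mRNA. IGF2BP proteins package mRNAs for transport and protect them, with *ACTB* mRNA as the classic cargo of IGF2BP1. FMRP, the product of *FMR1* whose loss causes fragile X syndrome, and its paralogs from *FXR1* and *FXR2* bind mRNAs in neurites and regulate their translation.

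The sum over the 5 identifiers named *SMN1* or *SMN2* was 1923 normalized counts in SCR and 424 in *SMN*-KD iMNs, a fall of 77.9%, and 1839 and 318 in i3Ns, a fall of 82.7%. All 7 pan-neuronal markers examined were measured in both tables. Markers of glutamatergic neurons ran as labelled, with means of *SLC17A7*, a glutamate transporter gene, of 50.1 normalized counts in iMNs and 6490 in i3Ns. Markers of motor neurons were mixed. The cholinergic genes *SLC5A7* and *SLC18A3* had means of 8460 and 3115 in iMNs and of 2472 and 1865 in i3Ns, while *CHAT* had 533 and 527. The motor neuron factors *ISL1*, *MNX1*, *ISL2* and *LHX3* had higher means in i3Ns, such as 1663 in iMNs and 14299 in i3Ns for *ISL1*. The tables were normalized separately, so levels set across them are approximate and were not tested.

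All 10 genes were well expressed. Their means over the 6 libraries of a cell type were 2588 (*FMR1*) to 27469 (*ELAVL3*) normalized counts in iMNs, and for the same genes 3170 to 36800 in i3Ns, against medians over all genes of 875 and 577. These levels lay between the 74.9th and 99.0th percentiles of the iMN table and between the 80.9th and 99.6th percentiles of the i3N table. Values of single libraries were not used here, so whether libraries of the groups overlap was not examined. The deposited standard errors imply a spread between replicates, beyond counting noise, of 2.31% to 5.12% of the mean in iMNs and 2.15% to 4.21% in i3Ns. This is an estimate of the DESeq2 model and was not measured from single libraries. Totals per library were not used, and sequencing depth is therefore unknown, but the sums of the mean normalized counts were similar at 4.33e+07 and 4.50e+07.

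**Figure D1:**
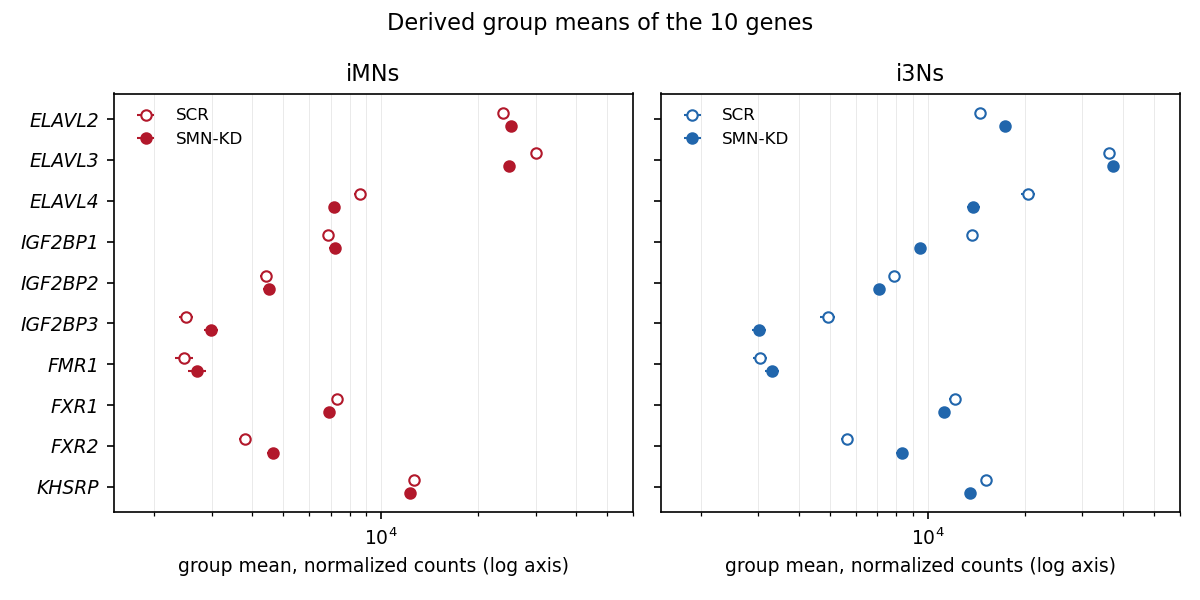
Group means of the 10 genes in normalized counts on a log axis, in iMNs (left) and i3Ns (right), with open points for SCR, filled points for *SMN*-KD and bars for 95% intervals derived from the standard errors. The points of *ELAVL4* lie at 8608 and 7180 in iMNs and at 20420 and 13829 in i3Ns, and those of *IGF2BP3* change order between the panels.

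Levels can be set between genes only per length, here as mean normalized count per kilobase of the reference (MANE Select) transcript. The order was taken in each group, since it was not the same in SCR and *SMN*-KD. In SCR iMNs it ran *ELAVL3* (6349 per kilobase), *ELAVL2* (5971), *KHSRP* (2949), *ELAVL4* (2171), *FXR2* (1275), *IGF2BP2* (1031), *FXR1* (876), *IGF2BP1* (781), *IGF2BP3* (586) and *FMR1* (556). In *SMN*-KD iMNs *ELAVL2* (6310) stood above *ELAVL3* (5236), and the order of the others was that of SCR. In SCR i3Ns it ran *ELAVL3* (7641), *ELAVL4* (5150), *ELAVL2* (3631), *KHSRP* (3549), *FXR2* (1890), *IGF2BP2* (1833), *IGF2BP1* (1559), *FXR1* (1453), *IGF2BP3* (1150) and *FMR1* (683). In *SMN*-KD i3Ns 3 pairs stood the other way round, with *ELAVL2* (4359) above *ELAVL4* (3488), *FXR1* (1346) above *IGF2BP1* (1078) and *FMR1* (744) above *IGF2BP3* (706).

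Of the 9 pairs of neighbours in each order, 8 were apart by more than their derived 95% interval in SCR iMNs, 8 in *SMN*-KD iMNs, 7 in SCR i3Ns and 8 in *SMN*-KD i3Ns. The pairs not apart were *IGF2BP3* and *FMR1* in SCR iMNs and in *SMN*-KD i3Ns, *FXR1* and *IGF2BP1* in *SMN*-KD iMNs, and *ELAVL2* and *KHSRP* as well as *FXR2* and *IGF2BP2* in SCR i3Ns. These intervals cover the spread between libraries and not the choice of transcript length.

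Of the neuronal ELAVL genes, *ELAVL3* and *ELAVL4* fell in iMNs, and in i3Ns *ELAVL4* fell and *ELAVL2* rose. *ELAVL4* (ENSG00000162374, chromosome 1, 50024029 to 50203772, plus strand, GRCh38), which encodes the SMN-binding protein HuD, averaged 8608 normalized counts in SCR and 7180 in *SMN*-KD iMNs. It averaged 20420 in SCR and 13829 in *SMN*-KD i3Ns. *ELAVL4* thus fell by 16.6% in iMNs (log2 fold change -0.26, SE 0.039, adjusted p = 1.69e-10) and fell by 32.3% in i3Ns (-0.56, SE 0.049, adjusted p = 2.16e-29). Here and below, rose and fell mean an adjusted p under 0.01 in the table of that cell type.

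*ELAVL3* (ENSG00000196361, chromosome 19, 11451326 to 11481046, minus strand), which encodes HuC, fell in iMNs. Its means were 30108 in SCR and 24831 in *SMN*-KD iMNs, a log2 fold change of -0.28 (SE 0.038, adjusted p = 1.12e-12). In i3Ns they were 36236 and 37364, a log2 fold change of 0.04 (SE 0.037, adjusted p = 0.321) with a 95% interval from -0.03 to 0.12. *ELAVL2* (ENSG00000107105, chromosome 9, 23690104 to 23826337, minus strand), which encodes HuB, rose in i3Ns from 14462 to 17363 (log2 fold change 0.26, SE 0.034, adjusted p = 2.42e-14), and in iMNs its means were 23784 and 25132 (0.08, SE 0.028, adjusted p = 0.0151).

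By length-scaled level, *ELAVL2* made up 41.2% of the family's sum in SCR and 47.2% in *SMN*-KD iMNs, and 22.1% and 27.7% in i3Ns. The share of *ELAVL4* was 15.0% and 13.6% in iMNs and 31.4% and 22.2% in i3Ns. The family's summed level in *SMN*-KD was lower by 7.83% in iMNs and was lower by 4.24% in i3Ns. These shares and sums were not tested. Pan-neuronal markers moved in the same libraries. In iMNs 6 of 7 fell and 1 rose (*RBFOX3*), with a summed level of 518106 normalized counts in SCR and 399683 in *SMN*-KD, and in i3Ns 5 of 7 fell and none rose, with sums of 381943 and 303211. Of all genes 18.7% fell in iMNs and 25.7% in i3Ns. Of 7 motor neuron markers, 4 fell and 1 rose in iMNs, and 5 fell and 1 rose in i3Ns. Of the glutamatergic markers, 1 of 4 measured fell in iMNs and none rose, and 3 of 6 measured fell and 2 rose in i3Ns. The part of these neuronal markers in the falls of *ELAVL3* and *ELAVL4* was not tested.

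**Figure D2:**
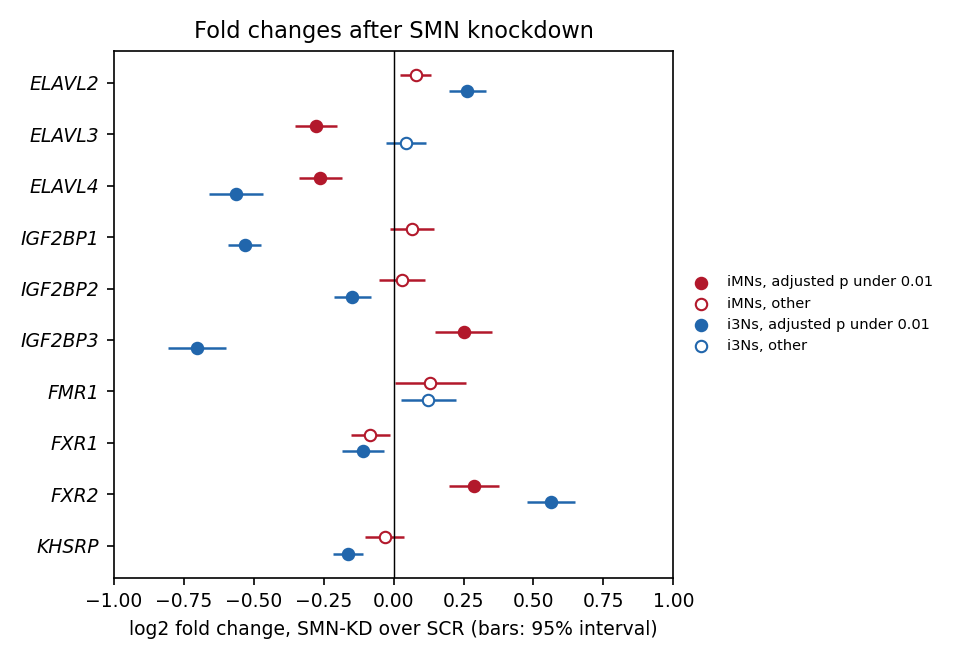
Log2 fold changes of *SMN*-KD over SCR for the 10 genes in iMNs (red) and i3Ns (blue), with bars for 95% intervals and filled points for an adjusted p under 0.01. The blue points of *IGF2BP1* (-0.53) and *IGF2BP3* (-0.70) lie left of zero and the red points (0.07 and 0.25) right of it, while both points of *FXR2* lie right of zero and both of *ELAVL4* left of it.

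All 3 IGF2BP genes fell in i3Ns, and none of them fell in iMNs. *IGF2BP3* (ENSG00000136231, chromosome 7, 23310209 to 23470491, minus strand), known as an oncofetal gene, averaged 4913 normalized counts in SCR and 3017 in *SMN*-KD i3Ns. In iMNs it averaged 2505 and 2980. It fell by 38.6% in i3Ns (log2 fold change -0.70, SE 0.053, adjusted p = 2.20e-39), the largest change of the 10 genes in either cell type. In iMNs it rose by 19.0% (log2 fold change 0.25, SE 0.052, adjusted p = 4.37e-06).

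*IGF2BP1* (ENSG00000159217, chromosome 17, 48997385 to 49056145, plus strand) averaged 13717 in SCR and 9485 in *SMN*-KD i3Ns, and fell by 30.9% (log2 fold change -0.53, SE 0.030, adjusted p = 3.26e-68). In iMNs its means were 6872 and 7195 (0.07, SE 0.040, adjusted p = 0.175). *IGF2BP2* (ENSG00000073792, chromosome 3, 185643130 to 185825042, minus strand) fell by less in i3Ns, from 7852 to 7090 (log2 fold change -0.15, SE 0.035, adjusted p = 5.29e-05), and had means of 4416 and 4511 in iMNs (0.03, SE 0.042, adjusted p = 0.596). In *SMN*-KD the summed length-scaled level of the family was lower by 24.3% in i3Ns and higher by 7.10% in iMNs. The share of *IGF2BP2* in that sum was 40.4% in SCR and 48.1% in *SMN*-KD i3Ns.

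IGF2BP genes are known to be expressed in embryonic, proliferating and mesenchymal cells as well as in young neurons, and markers of such cells moved in the same libraries. Of all genes 22.8% rose and 25.7% fell in i3Ns, while 17.1% rose and 18.7% fell in iMNs. In i3Ns 7 of 8 proliferation markers fell, with a summed level of 3375 normalized counts in SCR and 1634 in *SMN*-KD. Of 8 mesenchymal markers in i3Ns 6 fell and 1 rose (*ACTA2*), with sums of 12777 and 2108, and 5 of 7 progenitor markers fell, with sums of 77724 and 55891. *VIM* (45033 and 28108) and *NES* (31764 and 27560) made up most of these progenitor sums. *OLIG2*, *PAX6* and *HES1*, which also fell, had means of only 362, 102 and 43.4. In iMNs 5 of 7 measured mesenchymal markers rose and none fell, with sums of 2167 and 3736. Of 7 progenitor markers in iMNs 1 fell (*NES*) and none rose, with sums of 10234 and 9294. Of the proliferation markers, 5 of 8 were measured in iMNs and 1 rose (*PCNA*), with sums of 773 and 924, while *CDK1*, *BIRC5* and *AURKB* had no row. Pluripotency markers moved the other way in i3Ns, where 2 of 4 measured rose (*LIN28A* and *DPPA4*) and none fell, with sums of 1623 and 7237. *LIN28A* made up most of these sums, with 1559 and 6872, while *POU5F1* and *NANOG* had means of only 13.9 and 7.73. In iMNs only *LIN28A* of that list was measured, with 205 and 224. The part of these cells in the IGF2BP results was not tested. In bulk samples fewer cells of a type and less RNA per cell cannot be told apart.

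**Figure D3:**
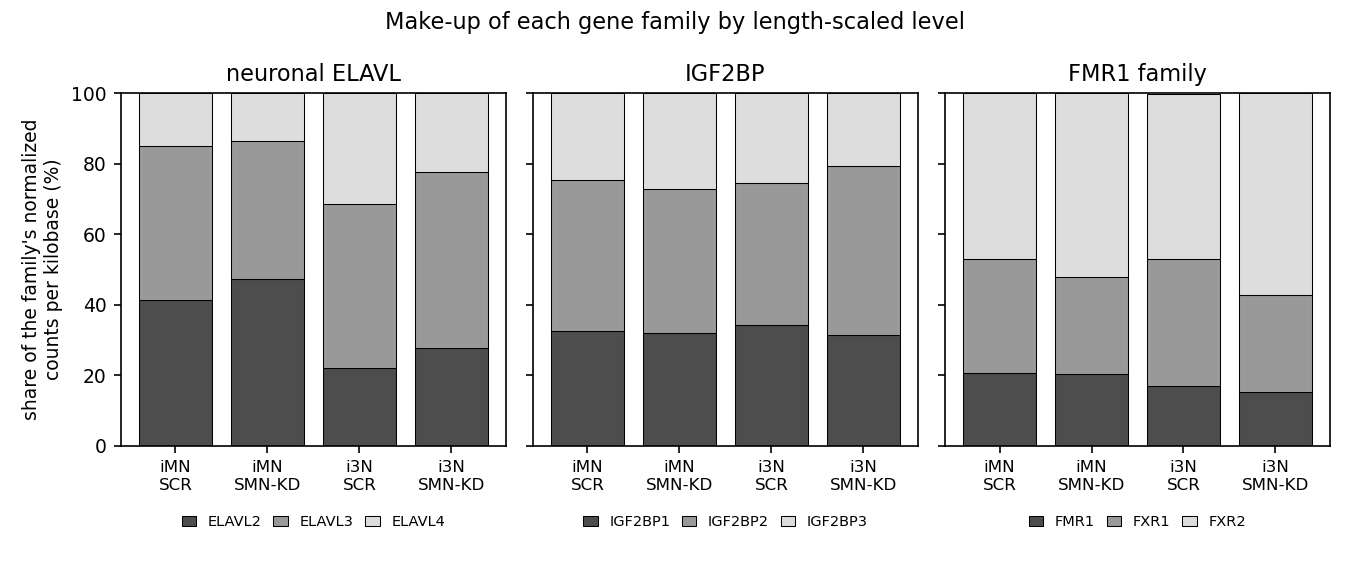
Share of each gene in the summed normalized counts per kilobase of its family, in percent, for SCR and *SMN*-KD iMNs and i3Ns, with 1 panel a family and no error bars because the shares were derived from group means. The *ELAVL4* segment is 31.4% in SCR and 22.2% in *SMN*-KD i3Ns, and the *FXR2* segment is 46.9% and 57.2%.

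By length-scaled level *FXR2* was the highest of the FMR1 family in every group. *FXR2* (ENSG00000129245, chromosome 17, 7591230 to 7614897, minus strand) averaged 3810 normalized counts in SCR and 4652 in *SMN*-KD iMNs. In i3Ns it averaged 5645 and 8343. It rose in both, by 22.1% in iMNs (log2 fold change 0.29, SE 0.045, adjusted p = 7.84e-10) and by 47.8% in i3Ns (log2 fold change 0.56, SE 0.044, adjusted p = 2.51e-37), the largest rise of the 10 genes in each cell type.

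*FMR1* itself (ENSG00000102081, chromosome X, 147911919 to 147951125, plus strand) passed the test in neither cell type. Its means were 2471 and 2705 in iMNs (log2 fold change 0.13, SE 0.065, adjusted p = 0.0799) and 3033 and 3306 in i3Ns (0.12, SE 0.050, adjusted p = 0.0256). The 95% intervals ran from 0.00 to 0.26 and from 0.03 to 0.22. *FXR1* (ENSG00000114416, chromosome 3, 180868141 to 180982753, plus strand) fell by 7.36% in i3Ns, from 12121 to 11228 (log2 fold change -0.11, SE 0.039, adjusted p = 0.00895), close to the threshold. In iMNs its means were 7311 and 6899 (-0.08, SE 0.036, adjusted p = 0.0429). By length-scaled level the share of *FXR2* in the family was 47.1% in SCR and 52.0% in *SMN*-KD iMNs, and 46.9% and 57.2% in i3Ns, with family sums higher in *SMN*-KD by 10.5% and 21.3%.

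*KHSRP* (ENSG00000088247, chromosome 19, 6413102 to 6424811, minus strand), the decay factor of the set, fell by 10.8% in i3Ns, from 15174 to 13541 normalized counts (log2 fold change -0.16, SE 0.027, adjusted p = 5.60e-09). In iMNs its means were 12609 and 12328 (-0.03, SE 0.036, adjusted p = 0.495), with a 95% interval from -0.10 to 0.04. A processed pseudogene, *KHSRPP1*, has no row in either table, and Salmon could have split reads between the copies.

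In iMNs 2 of the 10 genes rose (*IGF2BP3* and *FXR2*), 2 fell (*ELAVL3* and *ELAVL4*) and 6 did not pass the test. Over all iMN genes, 35.8% passed, 17.1% rising and 18.7% falling, and 53.7% of the 7733 genes with a mean of at least 1000 passed. The 4 of 10 is near or below these shares. The median log2 fold change of the 10 genes was 0.05 and their median absolute change 0.11, against 0.00 and 0.16 over all genes. In i3Ns 2 rose (*ELAVL2* and *FXR2*), 6 fell and 2 did not pass (*ELAVL3* and *FMR1*). Of all i3N genes 48.5% passed, 22.8% rising and 25.7% falling, and 70.6% of the 7767 genes with a mean of at least 1000 passed, so that 8 of 10 is near the share of genes at that level. The median log2 fold change was -0.13 and the median absolute change 0.21, against 0.01 and 0.32 over all genes.

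The study also asked for an absolute log2 fold change above 1 before it called a gene differentially expressed, and 0 of the 10 genes met that in either table. All genes met it at 3.34% in iMNs and 13.8% in i3Ns. The absolute changes of the 10 genes reached at most 0.29 in iMNs and 0.70 in i3Ns. By the authors' DESeq2 test, 7 of the 10 genes had an unadjusted p under 0.05 in iMNs and 9 in i3Ns, and 0 of these had an absolute change above 1. The share over all genes at that unadjusted threshold was not computed. It is at least the 35.8% in iMNs and 48.5% in i3Ns that passed at an adjusted p under 0.01. For well expressed genes it is at least 53.7% and 70.6%, so the 7 and 9 are not read as an excess. *ELAVL4*, *IGF2BP3* and *FXR2* changed in both cell types, *IGF2BP3* in opposite directions, and *FMR1* changed in neither.

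**Figure D4:**
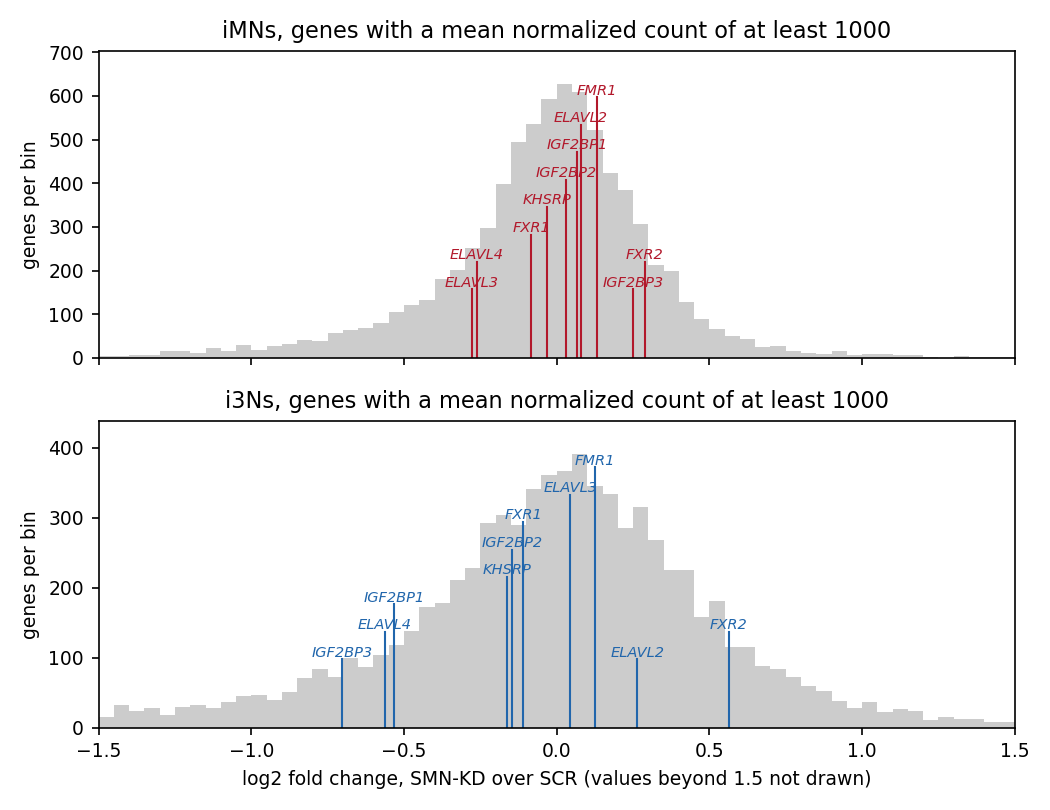
Histograms of log2 fold changes, as genes per bin, for well expressed genes (mean of 1000 normalized counts or more, 7733 genes in iMNs and 7767 in i3Ns), with a coloured line at the value of each of the 10 genes (line heights only keep the names apart). In iMNs the lines run from -0.28 (*ELAVL3*) to 0.29 (*FXR2*), and in i3Ns from -0.70 (*IGF2BP3*) to 0.56 (*FXR2*), where 10.8% and 89.0% of these genes lie lower.

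The difference between the cell types was tested for each gene as the i3N minus the iMN log2 fold change, with adjustment over the 16093 genes of both tables. It passed for 8 of the 10 genes, against 34.0% of all genes and 46.6% of the 6960 genes with a mean of at least 1000 in both. *IGF2BP3* and *IGF2BP1* differed most. The difference was -0.95 (SE 0.074, adjusted p = 4.05e-36) for *IGF2BP3*, -0.60 (SE 0.050, adjusted p = 4.89e-31) for *IGF2BP1* and -0.18 (SE 0.055, adjusted p = 0.00356) for *IGF2BP2*. All 3 had opposite signs in the cell types, as did *ELAVL3*, whose difference was 0.32 (SE 0.053, adjusted p = 8.91e-09). Of these genes only *IGF2BP3* changed in both cell types. The changes of *IGF2BP1* (0.07) and *IGF2BP2* (0.03) in iMNs and of *ELAVL3* (0.04) in i3Ns did not pass, so their signs there are not resolved.

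The fall of *ELAVL4* was larger in i3Ns by 0.30 (difference -0.30, SE 0.063, adjusted p = 1.08e-05), and the fold change of *KHSRP* was lower there (-0.13, SE 0.045, adjusted p = 0.00947). Those of *FXR2* (0.28, SE 0.063, adjusted p = 5.65e-05) and *ELAVL2* (0.18, SE 0.044, adjusted p = 0.000124) were higher in i3Ns. No difference passed for *FMR1* (-0.01, 95% interval -0.17 to 0.15, adjusted p = 0.966) or *FXR1* (-0.03, 95% interval -0.13 to 0.08, adjusted p = 0.749). The fall of summed *SMN1* and *SMN2* was 77.9% in iMNs and 82.7% in i3Ns, and its part in these differences was not tested.

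The 3′ UTRs were searched because an shRNA guide can also lower mRNAs that match its seed. The 7-base matches to guide bases 2 to 8 and 3 to 9, counted from 1 at the guide's 5′ end, were taken as CTAATAA and GCTAATA for the *SMN* shRNA and CTAGTAA and ACTAGTA for the scrambled shRNA, and they were sought on the transcript strand of the MANE Select 3′ UTR (GENCODE release 44, GRCh38). The guide was assumed to begin at the first base of the reverse complement of the target given in the study's methods. The processed 5′ end is not given in the sources used here, and another start would change the words and every count of matches. The 2 words of each guide overlap by 6 bases. None of the 10 genes holds a match to the *SMN* guide, against 19.1% of 14268 genes in iMNs and 18.6% of 15517 in i3Ns. The median log2 fold change over all genes with that match was -0.15 in iMNs and -0.20 in i3Ns, and without it 0.03 and 0.02. A match to the scrambled guide is present in *IGF2BP1* and *IGF2BP2*, against 11.4% and 11.0% of genes. The median with that match was 0.07 in iMNs and 0.16 in i3Ns, and without it -0.00 and -0.03. These 2 sites are shown because they are the only guide matches in the set. Both lie in the last exon (exon 15 of 15 and exon 16 of 16), 4262 and 2306 bases after the stop codon, and capitals mark the matched bases, which in *IGF2BP2* join both words.
*IGF2BP1*, chr17:49053697-49053721, plus strand: ccagcagtgCTAGTAActacctcac
*IGF2BP2*, chr3:185643209-185643234, minus strand: gggaagctcACTAGTAAgtgcaggca
Both genes fell in i3Ns, and the median of genes with this match was above zero there. Of the 7 pan-neuronal markers, only *DCX* holds a match to the *SMN* guide. A match is a description of the sequence and not a site of action.

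The pentamer ATTTA, the core of AU-rich elements that ELAVL proteins and KHSRP bind, was counted on the transcript strand of the same 3′ UTRs, overlapping copies included. It is present in all 10 genes, against 73.2% of genes in iMNs and 72.0% in i3Ns. Longer 3′ UTRs have more room for a copy. Only that of *FXR2* (600 bases) is shorter than the medians over genes of 1358.5 (iMNs) and 1295 (i3Ns). *ELAVL2* holds 16 copies in 2453 bases, or 6.52 per kilobase, against a median over genes of 1.79 (iMNs) and 1.76 (i3Ns). *ELAVL3* and *ELAVL4* hold 9 copies each (2.81 and 3.47 per kilobase). *KHSRP* holds 1 copy in 1922 bases (0.52 per kilobase) and *IGF2BP2* 2 copies (0.83 per kilobase). *IGF2BP1* (1.64 per kilobase) and *FMR1* (1.32) also lie below the medians, while *IGF2BP3* (3.25) and *FXR2* (3.33) lie above them. The most copies, 18, are in the 6461 bases of *FXR1* (2.79 per kilobase).

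Close relatives of the 10 genes were measured too. *FUBP3*, a paralog of *KHSRP*, rose in iMNs (log2 fold change 0.25, SE 0.067, adjusted p = 0.000319) and in i3Ns (0.48, SE 0.078, adjusted p = 1.59e-09). *FUBP1* (0.14 and -0.06) and *ELAVL1*, the ubiquitous Hu gene (0.10 and 0.00), passed in neither. Of 5 genes for partners of FMRP, 1 rose and 2 fell in each cell type, while 35.8% of all genes passed in iMNs and 48.5% in i3Ns. Among well expressed genes these shares were 53.7% and 70.6%. *NUFIP2* fell in both (-0.15 and -0.34). *CYFIP2*, a subunit of the actin-regulating WAVE complex, fell in iMNs (-0.13, SE 0.034, adjusted p = 0.000416) and rose in i3Ns (0.25, SE 0.049, adjusted p = 8.27e-07). Its paralog *CYFIP1* fell in i3Ns (-0.63, SE 0.070, adjusted p = 7.67e-19) and had a value of 0.13 (adjusted p = 0.259) in iMNs. *EIF4E*, the cap-binding protein, rose in iMNs (0.17, adjusted p = 0.000110), with 0.14 (adjusted p = 0.0102) in i3Ns. *NUFIP2*, *CYFIP2* and *FUBP1* hold a match to the *SMN* guide, and *CYFIP2* and *FUBP1* also hold a match to the scrambled guide.

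Of 43 other RNA-binding proteins of neuronal granules, 14 rose and 12 fell in iMNs (median log2 fold change 0.06), and 13 rose and 17 fell in i3Ns (median -0.04). The 26 and 30 that passed are near the 53.7% and 70.6% of well expressed genes that passed. The splicing regulator *NOVA1* changed most in both, from 15434 to 8506 normalized counts in iMNs (-0.86, SE 0.059, adjusted p = 9.20e-48) and from 18636 to 7535 in i3Ns (-1.31, SE 0.033, adjusted p listed as 0), and it is 1 of 10 among the 43 genes that hold a match to the *SMN* guide. *PABPC1*, the cytoplasmic poly(A)-binding protein, rose in both (0.55, SE 0.030 and 1.08, SE 0.032). *CPEB3* was the other of the 3 largest changes in iMNs (0.61, SE 0.050) and *NOVA2* in i3Ns (0.89, SE 0.035), and both rose. A match to the scrambled guide is present in *CPEB3*.

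Of 20 mRNAs known as cargo of these proteins or of axons, 4 rose and 14 fell in iMNs (median log2 fold change -0.22), and 1 rose and 13 fell in i3Ns (median -0.28). Of all genes 17.1% rose and 18.7% fell in iMNs, and 22.8% rose and 25.7% fell in i3Ns. Of well expressed genes 53.7% passed in iMNs and 70.6% in i3Ns, against 18 and 14 of these 20, some of which were weakly expressed. In iMNs the 3 largest changes were rises, of *CAMK2A* (1.05, SE 0.113), the neuritin gene *NRN1* (0.90, SE 0.193) and *BDNF* (0.75, SE 0.136). In i3Ns they were *ANXA2*, which fell from 14224 to 2593 normalized counts (-2.46, SE 0.054), the cell cycle inhibitor *CDKN1A*, which rose from 3296 to 9346, and *NRN1*, which fell (-1.36, SE 0.089). A match to the scrambled guide is present in *NRN1*. *GAP43*, a growth cone gene whose mRNA HuD binds, and *ACTB* were named after their values were seen. *GAP43* fell in iMNs (-0.61, SE 0.036) and in i3Ns (-1.29, SE 0.035), and *ACTB* fell by less (-0.12, SE 0.031 and -0.25, SE 0.029).

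IGF2BP1 and IGF2BP3 belong with LIN28 and HMGA2 to the oncofetal genes that let-7 microRNAs repress. Of 7 genes of that axis, 4 rose and 2 fell in iMNs, and 2 rose and 5 fell in i3Ns. By comparison, 35.8% of all genes passed in iMNs and 48.5% in i3Ns, and 53.7% and 70.6% of well expressed genes. *HMGA2* rose in iMNs (1.39, SE 0.141) and fell in i3Ns (-1.57, SE 0.131). *LIN28B* (0.37 and -0.18) and *HMGA1* (0.16 and -0.32) also rose in iMNs and fell in i3Ns. *IGF2*, whose mRNA gave the IGF2BP family its name, fell in both (-0.54 and -3.66), and so did *DICER1*, the enzyme that cuts microRNA precursors (-1.04 and -0.57). A match to the *SMN* guide is present in *IGF2*, and a match to the scrambled guide in *DICER1*. *TRIM71* rose in both (0.42 and 0.59). *LIN28A*, also a pluripotency marker, rose in i3Ns (2.14, SE 0.228) and had a value of 0.13 (adjusted p = 0.424) in iMNs. Levels of let-7 were not examined, and its part in these values was not tested.

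**Figure D5:**
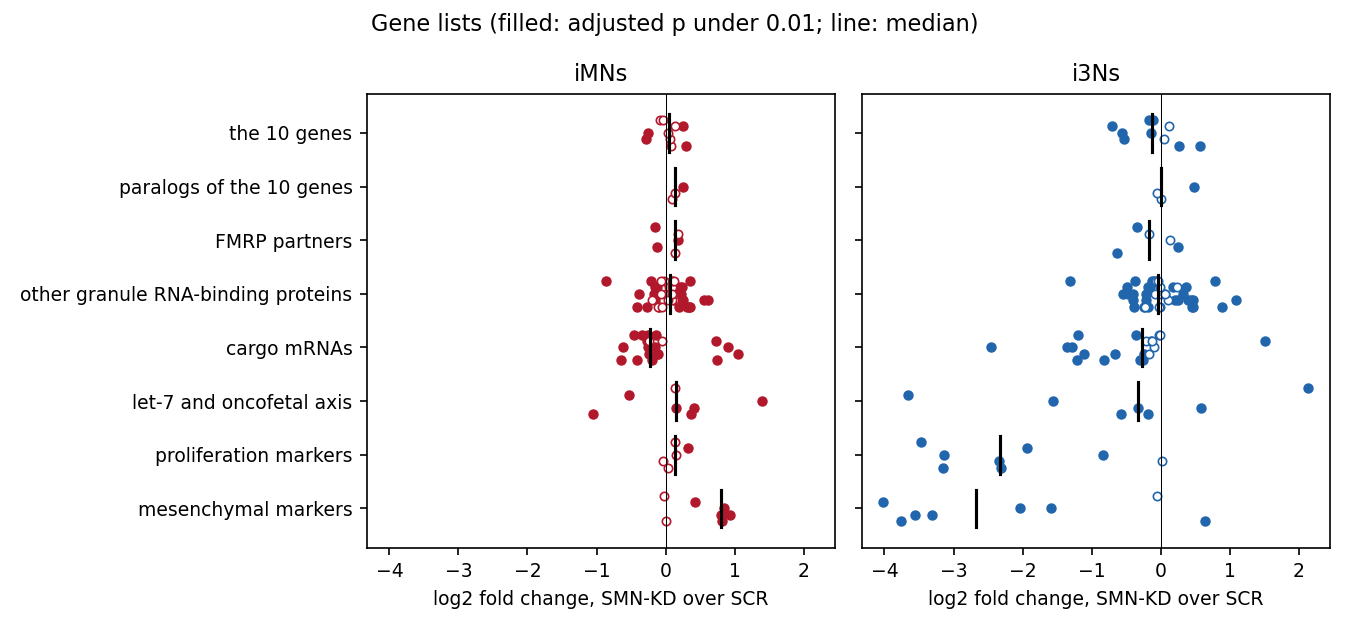
Log2 fold changes of *SMN*-KD over SCR by gene list in iMNs (left) and i3Ns (right), with 1 point a gene, filled points for an adjusted p under 0.01 and a black line at the median of each list. The medians of the 10 genes are 0.05 and -0.13, while the mesenchymal markers have medians of 0.81 in iMNs and -2.67 in i3Ns.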

How the data were processed

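Total RNA was depleted of rRNA and sequenced as paired-end reads. The authors trimmed reads with fastp, quantified them by Salmon and, within each cell type, tested *SMN*-KD against SCR (3 libraries per group) by DESeq2. Versions, annotation and the filter on low counts are not given in the sources used here, and the submitters' processing notes list hg38. The deposited tables hold the mean normalized count (a signal in size-factor units over 6 libraries), the log2 fold change, its standard error, and a p-value before and after Benjamini-Hochberg adjustment. The fold changes and p-values printed here are the authors' own, since the deposited tables hold no values per library and a count test that had been planned could not be run.

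Genes were called at an adjusted p under 0.01 (DEG: also an absolute log2 fold change above 1). Group means were derived from the mean and the fold change, and 95% intervals from the standard error. The SE of a group mean on the log2 scale was taken as that of the fold change divided by the square root of 2. Fold change over SE was 0.972 to 1.02 times the z of the p-value for the 10 genes in iMNs and 0.996 to 1.00 times in i3Ns. This did not hold for every weakly expressed gene. The p-values of *SMN2* (ENSG00000277773) in iMNs (-0.095, SE 0.306) and *HES5* (ENSG00000273529) in i3Ns (-0.84, SE 1.67) were smaller than fold change over SE implies. Group means and sums of weakly expressed genes are therefore approximate, as is the share of all genes that differed between cell types. Differences between cell types were tested by a Wald z with Benjamini-Hochberg adjustment over 16093 genes, a step tested on simulated data. Columns of other series numbered 0. Scripts used Python 3.11.15, pandas 2.3.3, numpy 2.4.6, scipy 1.17.1 and matplotlib 3.10.9.

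The 10 genes and all lists were chosen with earlier results of these data known. All 10 genes were named in both tables. Other lists were given as counts, with the 3 largest changes (adjusted p under 0.01, mean of at least 100) named for granule proteins and cargo. Where a symbol had several identifiers, that with the highest mean was used. Alternatives tried were other p and fold thresholds, a filter at a mean of 100, centring, doubled or p-implied standard errors, other transcripts and matches to guide bases 2 to 8 alone.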

Additional observations from a re-analysis of the deposited data

Results flagged for a closer look

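The log2 fold change after *SMN* knockdown differed between i3Ns and iMNs for 8 of the 10 genes, by a Wald z with Benjamini-Hochberg adjustment over 16093 genes. As i3N minus iMN, the difference was -0.95 for *IGF2BP3*, -0.60 for *IGF2BP1*, -0.18 for *IGF2BP2*, -0.30 for *ELAVL4* and -0.13 for *KHSRP*. It was 0.32 for *ELAVL3*, 0.28 for *FXR2* and 0.18 for *ELAVL2*. Of all genes, 34.0% differed by the same test. Cell type, stem cell line and protocol cannot be told apart in these differences.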

How the results depend on the processing

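No result changed direction under the alternatives run, but this says little about robustness. Only centring altered the fold changes, by 0.001 in iMNs and 0.010 in i3Ns, and the other alternatives could not change a direction. With standard errors doubled, the genes with an adjusted p under 0.01 numbered 2 in place of 4 in iMNs, without *IGF2BP3* (adjusted p = 0.0836) and *FXR2* (0.0113), and 5 in place of 8 in i3Ns, without *IGF2BP2* (0.0931), *FXR1* (0.333) and *KHSRP* (0.0101). The difference between cell types then passed for 2 genes, *IGF2BP1* and *IGF2BP3*, in place of 8. Over all genes the difference then passed for 1594 of 16093, in place of 5478. Counts over all genes with doubled standard errors are not given within each cell type, so those counts have no background here. With no fold change threshold the DEGs numbered 4 in iMNs and 8 in i3Ns in place of 0, and with a threshold of 0.5 they numbered 4 in i3Ns. At an adjusted p under 0.05, *ELAVL2* and *FXR1* were added in iMNs and *FMR1* in i3Ns. The other 24 recomputed counts stayed within 1.5 times the reported ones, and 106 recomputed values of single genes kept their call. No paired analysis was possible because the tables hold no values per library. For the same reason leaving out each replicate and a second count tool were not run, and what 1 library contributes is unknown.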
